A study of Mus musculus with 54 samples.

Results

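CNS-associated macrophages of the perivascular spaces and the leptomeninges, together called subdural CAMs (sdCAMs), were profiled by bulk RNA-seq in Ccr2-/- mice, and this comparison sets sdCAMs that had repopulated the brain borders after depletion against resident sdCAMs, both 12 hours after a systemic challenge with lipopolysaccharide (LPS). It holds 6 of the 54 libraries of the series: 3 BLZ945 libraries (B2m, B3m and B4f) and 3 vehicle libraries, here called CTL (V1m, V2m and V4f). They were taken by the column names of the Ccr2-/- count table, together with the cell type, genotype and treatment that the labels give. Every Ccr2-/- mouse, untreated ones included, was homozygous for the Ccr2 knockout allele of the line B6.129S4-Ccr2tm1Ifc/J. Ccr2 is thus lost from all cells of these animals and not from one lineage only. Mice received BLZ945, an inhibitor of the receptor CSF1R on which macrophages depend for survival, or vehicle, and 8 weeks after the end of that treatment they were injected with LPS. The 3 untreated Ccr2-/- libraries (1m, 3m and 5f) came from mice that had neither BLZ945 nor vehicle and were injected with PBS. For comparison between genotypes, 9 sdCAM libraries of wild-type (WT) mice were also used. These WT mice had LPS after BLZ945 or vehicle, or PBS without either. Age was not analysed here, and the letters m and f stand in the library names. The tissue was brain without choroid plexuses, and sdCAMs and microglia (MG) were separated by fluorescence-activated sorting. No gate is spelled out for these libraries in the sources used here. CD206, the product of Mrc1, is the marker by which the study tells CAMs from MG elsewhere, so the level of Mrc1 may not be independent of the sort.

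sdCAMs arise from yolk sac precursors, live long and renew themselves locally. When CSF1R is blocked they die, and when the block ends the niche is filled again, either by cells that survived or by cells that come from the blood. CCR2 is the chemokine receptor that lets classical monocytes leave the bone marrow and enter tissue, so its loss limits the second source. LPS, a part of the wall of Gram-negative bacteria, is sensed by TLR4 with CD14 and MD-2. MYD88 then leads to NF-kappaB and to cytokines and chemokines, whereas TRIF leads to interferon beta and, through its receptor, to interferon-stimulated genes. The question put to these libraries was whether sdCAMs that refilled the niche without CCR2 answered LPS as resident sdCAMs did.

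Library totals were 7887891 to 10727796 counts in all 9 Ccr2-/- sdCAM libraries, the same range as in the 6 libraries compared. Levels are given as CPM, which are counts divided by the library total after scaling by edgeR's TMM factors. GEO titles of the LPS libraries of Ccr2-/- mice name the other cell type. The column name and the cell type label were used instead, and Cd163, a CAM gene, lay at 1299 ± 118 CPM (SD, n = 3) in CTL libraries taken as sdCAMs and at 0.112 ± 0.123 CPM in CTL libraries taken as MG, in a fit of both cell types. The letter in the library name went with Xist or the Y-linked Ddx3y in 16 of 18 Ccr2-/- libraries, and did not in the 2 libraries of untreated mouse 3m. Each of the compared groups held 2 libraries with m and 1 with f. Library B4f stood apart. Its correlation with the other 5 LPS libraries over log2 CPM of all genes tested was 0.876 to 0.889, against 0.913 to 0.923 among the 3 CTL libraries, and counts are therefore also given without it.

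Ccr2 itself was counted at a low level in every group. It lay at 5.32, 2.92 and 3.17 unscaled CPM in CTL libraries, at 2.89, 1.69 and 3.22 in BLZ945 libraries, and at 3.02, 2.46 and 5.59 in untreated libraries. The groups overlapped, and the exact two-sided permutation test gave p = 0.4 between BLZ945 and CTL, where 3 against 3 libraries cannot give less than 0.1. Untreated WT sdCAMs held 16.8 to 43 CPM, but WT sdCAMs after LPS held 0 to 0.26 CPM in CTL and 1.46 to 6.99 CPM in BLZ945 libraries. A count per gene does not show which part of the transcript is present, so it cannot check the deletion. Macrophage markers were present throughout: Mrc1 lay at 1443, 1374 and 1273 CPM in the CTL libraries and 1218, 1164 and 753 CPM in the BLZ945 libraries, and Pf4, a chemokine of border macrophages, at 930.3, 834 and 1039 CPM in the CTL libraries and 817, 377 and 738 CPM in the BLZ945 libraries.

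No gene passed the test between repopulated and resident sdCAMs after LPS. Of 11941 genes tested with edgeR's quasi-likelihood test, 0 (0%) reached a Benjamini-Hochberg adjusted p under 0.05 with a log2 difference over 1 in size, and the smallest adjusted p was 0.0502, for Sh3bgrl2. At an unadjusted p under 0.05 stood 998 genes, 435 of them higher in BLZ945 (3.64% of genes tested) and 563 lower (4.71%). The 3 BLZ945 values all lay above the 3 CTL values for 871 genes (7.29%) and all below for 822 (6.88%). These shares of all genes stand beside every list count and every lack of overlap between BLZ945 and CTL given below. The median log2 difference over all genes was 0.01. DESeq2 on the same counts called 63 genes (0.528%), of which 16 were higher and 47 lower in BLZ945. For 4997 genes (41.8%) the 95% interval of the log2 difference lay within 1 in either direction, so a difference of that size was outside that interval for these genes, whereas it was not for the others at this depth and with 3 libraries a group. Each library name gives its own mouse, and nothing in the labels names separate litters or days, so the p-values measure the spread between these libraries. In bulk libraries fewer cells of a type and less RNA per cell cannot be told apart.

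The same fit called many genes for LPS itself. Against untreated sdCAMs, 2569 genes (21.5%) were called in CTL, 1303 higher and 1266 lower, and 2770 (23.2%) in BLZ945, 1373 higher and 1397 lower. Both comparisons share the 3 untreated libraries, so they are given side by side only. Saa3, an acute phase protein that macrophages make, rose from 93.9, 1.39 and 102 CPM in untreated libraries to 61204, 70161 and 60121 CPM in CTL and 76416, 62966 and 78151 CPM in BLZ945 libraries. The log2 change was 9.92 (adjusted p = 2.16e-05) in CTL and 10.11 (adjusted p = 2.03e-05) in BLZ945, and between BLZ945 and CTL the values overlapped (log2 difference 0.18, SE 0.74, adjusted p = 0.97). Ccl5, a chemokine for T cells, rose by 9.53 (adjusted p = 8.38e-09) and 9.68 (adjusted p = 9.9e-09) on the log2 scale, and its levels of 4652, 5043 and 4768 CPM in the CTL libraries and 5389, 4361 and 6272 CPM in the BLZ945 libraries overlapped as well. Fth1, the heavy chain of the iron store ferritin, rose by 2.92 (adjusted p = 1.72e-08) and 3.03 (adjusted p = 1.66e-08). Its 95% interval between BLZ945 and CTL, -0.16 to 0.38 on the log2 scale, holds 0. Of 14 LPS response genes that the study named from these same libraries, which makes the list no independent evidence, 13 were called higher with LPS in CTL and 13 in BLZ945, and Il12b, at 36.4, 0 and 0 CPM in CTL and 2.02, 24.6 and 0 CPM in BLZ945 libraries, was called in neither.

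Because edgeR called no gene, genes were named by rank of edgeR's p: the 10 higher and the 10 lower in BLZ945 with the smallest p, among those with a mean of at least 10 CPM in either group and no overlap between the groups. DESeq2 called all 10 of the lower genes, and 5 of the 10 higher ones (Lat2, Anxa2r1, Ly9, H2-DMa and Pdk1). Sh3bgrl2, a small protein of the thioredoxin-like SH3BGR family, was first. It stood at 121, 191 and 184 CPM in the CTL libraries and 35.8, 35.9 and 41.6 CPM in the BLZ945 libraries, so that every BLZ945 value lay below every CTL value. The level was 4.38-fold lower in BLZ945 (log2 difference -2.13, SE 0.27, adjusted p = 0.0502), and in untreated sdCAMs it was 57.6, 92 and 46.3 CPM. LPS raised it in CTL by 1.34 (adjusted p = 0.00219) on the log2 scale, but in BLZ945 the difference from untreated was -0.79 (adjusted p = 0.0386). The adjusted p by DESeq2 was 2.61e-10, and without B4f edgeR called it too.

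Lat2, an adaptor protein of the plasma membrane that passes on signals of Fc and TREM receptors, led the genes higher in BLZ945. Its levels were 14.5, 17.5 and 17.5 CPM in the CTL libraries and 52.2, 57.7 and 73.8 CPM in the BLZ945 libraries, against 6.75, 9.4 and 6.75 CPM in untreated sdCAMs. All BLZ945 values were above all CTL values, by 3.7-fold (log2 difference 1.89, SE 0.27, adjusted p = 0.0685). With LPS it rose in both groups, by 1.11 (adjusted p = 0.00789) in CTL and 3.0 (adjusted p = 6.11e-06) in BLZ945. Anxa2r1, which encodes a receptor for annexin A2, stood at 4.32, 6.32 and 5.65 CPM in the CTL libraries and 15.9, 32.7 and 23.1 CPM in the BLZ945 libraries (log2 difference 2.13, SE 0.44, adjusted p = 0.222). Ly9, a SLAM family receptor of immune cells, was at 18.8, 28.9 and 18.5 CPM in the CTL libraries and 47.8, 61.8 and 46.5 CPM in the BLZ945 libraries (log2 difference 1.24, SE 0.27, adjusted p = 0.222). The CTL values lay below the untreated ones (39.3, 42.2 and 57.6 CPM), and the BLZ945 values overlapped these. Pdk1, a kinase that holds back pyruvate dehydrogenase, had the same order, with 26.4, 17 and 17.5 CPM in the CTL libraries and 45.7, 44.4 and 45.3 CPM in the BLZ945 libraries and 49.8, 31.6 and 35.8 CPM in untreated libraries. Radx, a protein that binds single-stranded DNA at replication forks, was almost uncounted without LPS (0.104, 0.116 and 0.113 CPM) and rose to 19.2, 20.6 and 18.3 CPM in CTL and 40.01, 62.7 and 33.3 CPM in BLZ945 libraries (log2 difference 1.23, SE 0.30, adjusted p = 0.314 between them). Farsb, a subunit of phenylalanyl-tRNA synthetase, and the long noncoding RNA Slfnlnc differed by 0.74 and 0.98 on the log2 scale, and the other 3 of the 10 were MHC class II genes.

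Cd209a, a C-type lectin of dendritic cells and some macrophages, had the most negative log2 difference among the 10 genes lower in BLZ945. It lay at 462, 395 and 592 CPM in untreated sdCAMs, at 61.7, 106 and 146 CPM in CTL and at 5.56, 2.99 and 22.5 CPM in BLZ945 libraries. These 3 groups did not overlap, and B4f was the highest of the BLZ945 libraries (log2 difference -3.33, SE 0.57, adjusted p = 0.164). The gene fell with LPS by 2.2 on the log2 scale in CTL (adjusted p = 0.0075) and by 5.53 in BLZ945 (adjusted p = 2.96e-05). Gimap6, a GTPase of immune cells linked to autophagy, followed the same order, with 82, 79.96 and 108 CPM in untreated libraries and 24.1, 18.6 and 29.7 CPM in the CTL libraries and 4.95, 5.34 and 9.21 CPM in the BLZ945 libraries (log2 difference -1.89, SE 0.30, adjusted p = 0.163). Plekhg5, an exchange factor for small GTPases, did so too, at 13.1, 11.9 and 12.6 CPM in the CTL libraries and 5.35, 2.56 and 2.55 CPM in the BLZ945 libraries after 98.8, 59 and 67.5 CPM without LPS.

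A second set of genes was raised by LPS in CTL and lay near the untreated level in BLZ945. Gja1, the gap junction protein connexin 43, was at 14.8, 35.2 and 11.8 CPM without LPS, and at 149, 113 and 116 CPM in the CTL libraries and 24.1, 34.8 and 39 CPM in the BLZ945 libraries (log2 difference -1.94, SE 0.37, adjusted p = 0.164). Its LPS change was 2.61 (adjusted p = 0.000216) in CTL and 0.67 (adjusted p = 0.191) in BLZ945. Samd9l, an interferon-inducible antiviral protein, was at 118, 164 and 126 CPM without LPS, and at 294, 297 and 305 CPM in the CTL libraries and 136, 175 and 120.3 CPM in the BLZ945 libraries (log2 difference -1.06, SE 0.18, adjusted p = 0.164). The CTL values of both genes lay above all others, and the BLZ945 values overlapped the untreated ones. Dtx3l, a ubiquitin ligase that works with PARP9, Notch2, a Notch receptor, Trpm4, a calcium-activated cation channel, and Epg5, a tether of autophagosomes to lysosomes, were not called with LPS in CTL. Notch2 lay at 137, 135 and 125 CPM in the CTL libraries and 65, 65.8 and 35.5 CPM in the BLZ945 libraries and Trpm4 at 10.7, 13.4 and 9.61 CPM in the CTL libraries and 2.63, 1.71 and 1.47 CPM in the BLZ945 libraries, with 134, 114 and 103 CPM and 12.9, 14.6 and 13.8 CPM in untreated sdCAMs. In both, the BLZ945 libraries were below all CTL and all untreated libraries. Without B4f, edgeR called 7 genes, all lower in BLZ945: Cd209a, Gimap6, Gpr165, P2rx7, Sh3bgrl2, Spats2l and Tnfsf10. With the letter m or f as a covariate it called 9, namely H2-Aa, H2-Ab1, H2-Eb1 and Lat2 higher and Cd209a, Egfr, Gimap6, Notch2 and Sh3bgrl2 lower.

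**Figure D1:**
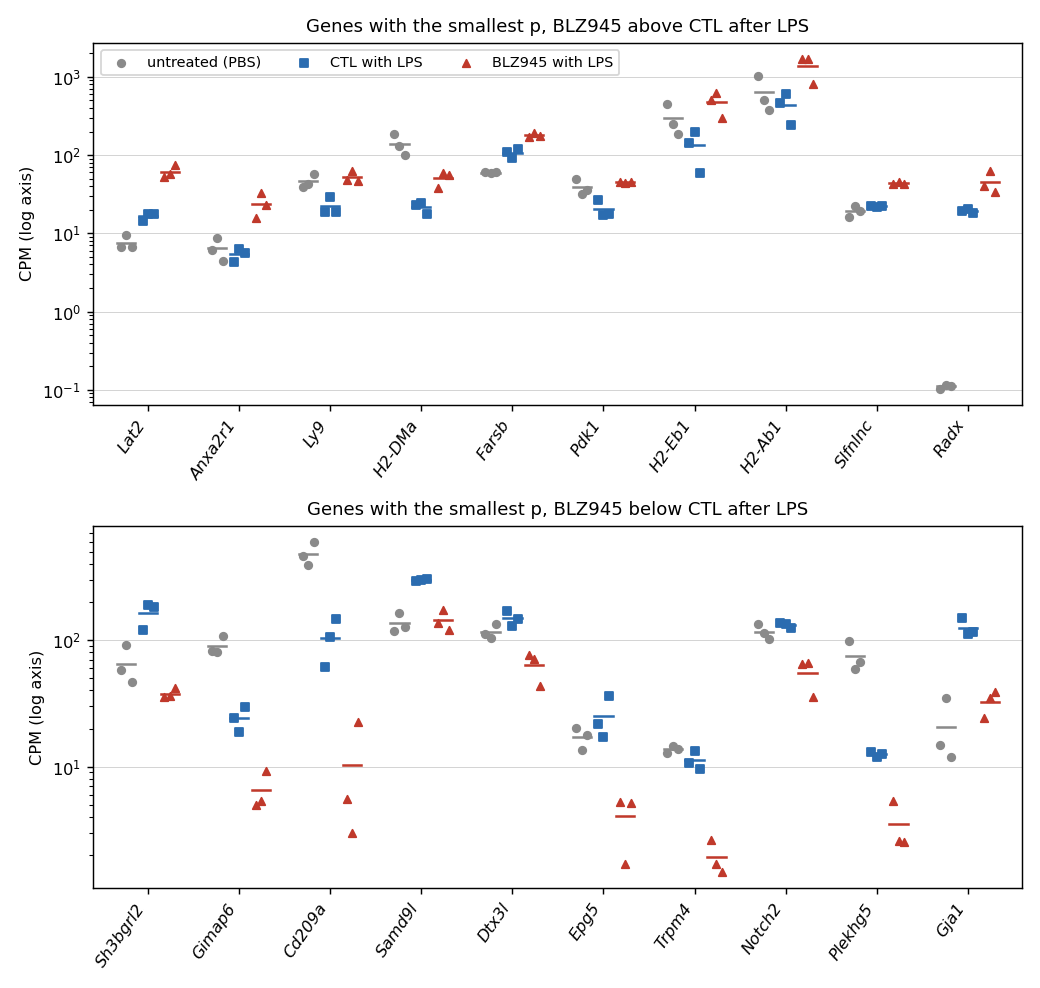
Level of each gene in CPM (log axis) in the 9 Ccr2-/- sdCAM libraries. Points are libraries, 3 for each of untreated, CTL with LPS and BLZ945 with LPS, and short bars are arithmetic means. The upper panel holds the genes with the smallest p above CTL that had a value above 0 in every untreated library. The lower panel holds the genes with the smallest p below CTL. The CTL and BLZ945 points do not overlap for any gene shown, as the rule for naming them required.

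MHC class II molecules present peptides from outside the cell to CD4 T cells. They are heterodimers (H2-A from H2-Aa and H2-Ab1, H2-E with the beta chain H2-Eb1), they need the invariant chain Cd74 for assembly and transport, and H2-DM (H2-DMa, H2-DMb1) loads the peptide. Their promoters carry W, X and Y boxes, on which RFX and NF-Y proteins assemble and recruit the coactivator CIITA. The 250 bases before the RefSeq start of H2-Eb1 and H2-Aa, which encode chains of both heterodimers, are shown with the core of the Y box (CCAAT, or ATTGG where it lies on the other strand) and an X box core (AGCAAC and GATG with any base between) in capitals. Both are written 5′ to 3′ on the gene's strand in GRCm38.p6, H2-Eb1 from chr17:34305617-34305866 (plus strand) and H2-Aa from chr17:34287824-34288073 (minus strand).
H2-Eb1: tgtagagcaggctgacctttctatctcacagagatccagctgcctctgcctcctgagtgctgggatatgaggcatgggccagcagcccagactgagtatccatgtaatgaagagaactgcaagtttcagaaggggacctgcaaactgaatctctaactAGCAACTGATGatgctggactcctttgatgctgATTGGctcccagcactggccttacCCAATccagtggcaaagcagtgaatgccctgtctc
H2-Aa: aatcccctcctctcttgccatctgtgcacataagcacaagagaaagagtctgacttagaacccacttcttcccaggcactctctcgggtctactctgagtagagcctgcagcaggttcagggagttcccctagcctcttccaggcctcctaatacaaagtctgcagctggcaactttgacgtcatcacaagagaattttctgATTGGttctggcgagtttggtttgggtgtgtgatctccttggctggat
Searched on both strands, CCAAT is in 33.8% of 32851 promoters of this length and in 4 of the 6 promoters found for genes of the list below (H2-Aa, H2-DMa, H2-DMb1 and H2-Eb1). The X box core is in 0.0578% of all and in 1 of the 6, that of H2-Eb1, where it begins 92 bases before the start, with Y box cores beginning 59 and 35 bases before it. H2-Aa has 1 Y box core, 48 bases before the start. A match of letters is a description and neither a bound site nor a cause, and the absence of these letters says nothing of the factor.

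Class II genes stood higher in repopulated sdCAMs, although none of them passed edgeR's adjustment. H2-Eb1 lay at 143, 198 and 59.5 CPM in the CTL libraries and 509.5, 624 and 298 CPM in the BLZ945 libraries. The lowest BLZ945 value, that of B4f, was above the highest CTL value, and the lowest CTL value came from V4f, the other library with the letter f. The level was 3.58-fold higher in BLZ945 (log2 difference 1.84, SE 0.43, adjusted p = 0.283). H2-Ab1 was at 469, 595 and 245 CPM in the CTL libraries and 1674, 1682 and 821 CPM in the BLZ945 libraries (log2 difference 1.67, SE 0.40, adjusted p = 0.307). H2-Aa was at 219, 323 and 103 CPM in the CTL libraries and 722, 848 and 402 CPM in the BLZ945 libraries (log2 difference 1.61, SE 0.41, adjusted p = 0.332). In both the groups did not overlap, and the libraries with f were again the lowest of their group. With the letter as a covariate, the log2 differences were 1.92 for H2-Eb1, 1.69 for H2-Ab1 and 1.67 for H2-Aa, and all 3 were called.

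The genes that serve the class II chains stood higher as well. Cd74 lay at 2306, 2944 and 1794 CPM in the CTL libraries and 5772, 5014 and 3861 CPM in the BLZ945 libraries (log2 difference 1.06, SE 0.30, adjusted p = 0.376), and DESeq2 gave an adjusted p of 0.0334. H2-DMa lay at 22.9, 24.4 and 17.7 CPM in the CTL libraries and 37.9, 59.2 and 56.4 CPM in the BLZ945 libraries (log2 difference 1.24, SE 0.27, adjusted p = 0.222), with an adjusted p of 0.00535 by DESeq2. H2-DMb1 was at 19, 20.5 and 17.5 CPM in the CTL libraries and 25, 36.2 and 35.4 CPM in the BLZ945 libraries (log2 difference 0.76, SE 0.22, adjusted p = 0.423). The groups overlapped in none of these genes. The LPS change differed in kind among them. H2-DMa and H2-DMb1 fell in both groups: by 2.68 and 2.49 on the log2 scale in CTL and by 1.44 and 1.73 in BLZ945, each with an adjusted p under 0.05. Cd74 and H2-Ab1 rose with LPS in BLZ945, by 1.27 (adjusted p = 0.00658) and 1.13 (adjusted p = 0.0464), whereas in CTL they stood at 0.21 (adjusted p = 0.655) and -0.55 (adjusted p = 0.345). H2-Aa fell with LPS in CTL, at -1.21 (adjusted p = 0.0428), and stood at 0.40 (adjusted p = 0.507) in BLZ945.

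From other libraries, the study named Fxyd5, Ccr2 and genes related to MHC class II, as a group, as marking bone marrow-derived sdCAMs. The list of 9 genes used for this side holds Ccr2, Fxyd5 and 7 class II genes, most of which were picked here. Of the 9, 7 were higher at an unadjusted p under 0.05 (against 3.64% of all genes), none was lower, and the median log2 difference was 1.06 beside 0.01 over all genes. The seventh was Fxyd5, a regulator of the sodium pump, at 62.8, 58.3 and 96.2 CPM in the CTL libraries and 97.1, 89.7 and 157 CPM in the BLZ945 libraries, where the groups overlapped (log2 difference 0.66, SE 0.26, adjusted p = 0.539). The other 2 were Ccr2, which all these mice carry as a knockout allele, and Ciita, the class II coactivator. Ciita was listed at 6.44, 9.63 and 1.69 CPM in untreated libraries, but at 0.131, 0 and 0 in CTL and at 0 in all 3 BLZ945 libraries. By edgeR 0 of the 9 were called, and by DESeq2 2 (Cd74 and H2-DMa). Without B4f, 6 were higher at an unadjusted p under 0.05 and the median was 1.16. Among listed markers of B cells and dendritic cells, some were at or near 0 and others were counted. Of dendritic cell markers, Zbtb46 lay at 11.9, 6.85 and 8.53 CPM in CTL and 7.68, 10.7 and 2.65 CPM in BLZ945 libraries. Ccr7 lay at 2.88, 1.58 and 1.8 CPM in CTL and 2.12, 7.26 and 0 CPM in BLZ945 libraries. Xcr1 lay at 0.131, 0.632 and 2.28 CPM in CTL and 0, 0 and 2.74 CPM in BLZ945 libraries. The part of such cells in the class II difference was not tested. Of lymphocyte markers, Cd79b of B cells was lower in BLZ945 (14.5, 8.74 and 12.7 CPM in the CTL libraries and 6.67, 6.94 and 6.08 CPM in the BLZ945 libraries, log2 difference -0.87, SE 0.33, adjusted p = 0.523), Ms4a1 was at 0, 2.63 and 0 CPM in CTL and 0.808, 0.107 and 0 in BLZ945, and of dendritic cell markers Clec9a was at 0 throughout and Flt3 at 0 in 5 of the 6 libraries. In MG of the same mice H2-Eb1 lay at 2.47 ± 0.713 CPM in CTL and 2.36 ± 0.972 CPM in BLZ945 (SD, n = 3).

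The 6 genes listed for yolk sac-derived sdCAMs (Cd163, Lyve1, Folr2, C4b and Colec12, which the study named from other libraries, and Timd4, which was added here) lay lower in BLZ945 or overlapped, and none passed edgeR's adjustment. Of the 6, 4 were lower at an unadjusted p under 0.05 (against 4.71% of all genes), none was higher, and the median log2 difference was -0.80. Cd163, the scavenger receptor for haemoglobin bound to haptoglobin, lay at 1149.6, 1187 and 1318 CPM in the CTL libraries and 420.3, 733 and 777 CPM in the BLZ945 libraries. No value overlapped, and the untreated libraries were higher than either group at 1689.7, 1622 and 1665 CPM (log2 difference -0.92, SE 0.20, adjusted p = 0.222). C4b, a complement component, was at 363, 395 and 403 CPM in the CTL libraries and 109, 258 and 173 CPM in the BLZ945 libraries (log2 difference -1.11, SE 0.24, adjusted p = 0.222) and was called by DESeq2 (adjusted p = 0.00221). Colec12, a scavenger receptor with a C-type lectin domain, was at 109, 145 and 143 CPM in the CTL libraries and 80.1, 64.9 and 76.9 CPM in the BLZ945 libraries (log2 difference -0.84, SE 0.17, adjusted p = 0.222). C4b and Colec12 fell with LPS in both groups, and Cd163 passed the test for LPS in BLZ945, with -0.45 (adjusted p = 0.107) in CTL and -1.37 (adjusted p = 0.000207) in BLZ945. Timd4, a receptor for phosphatidylserine on dying cells, overlapped between groups: B2m held 72.6 CPM, and B3m and B4f held 205 and 235 CPM, against 296, 349 and 229 CPM in CTL. Lyve1, a hyaluronan receptor, and Folr2, a folate receptor, lay at log2 differences of 0.20 (adjusted p = 0.927) and 0.26 (adjusted p = 0.826). For Lyve1 too, B2m was the lowest BLZ945 library, at 70.4, 222 and 258 CPM in B2m, B3m and B4f. Without B4f the list's median was -0.97, again with 4 of 6 lower.

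**Figure D2:**
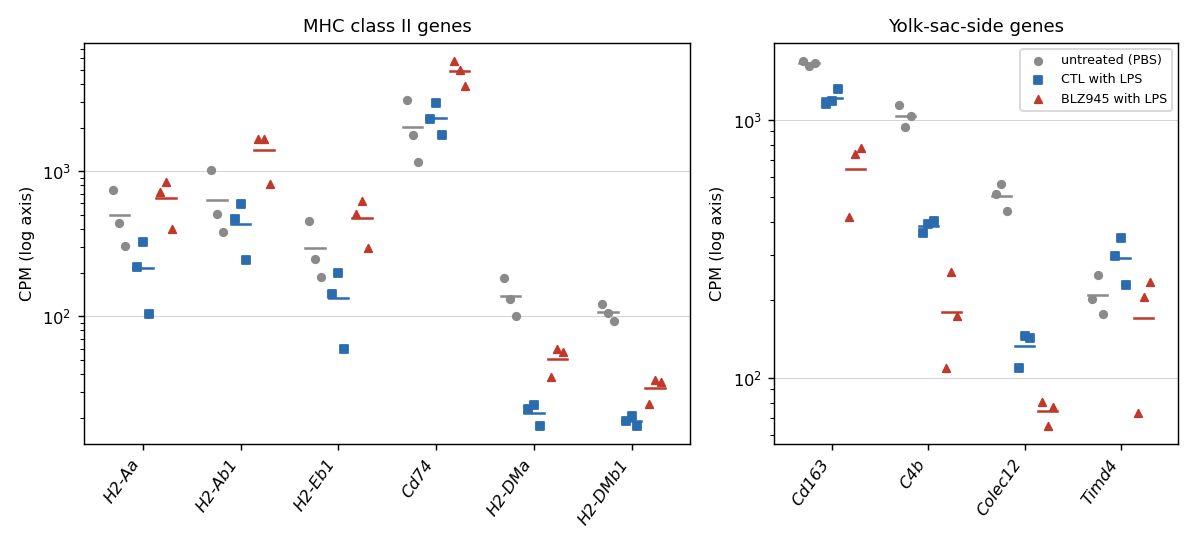
Level in CPM (log axis) of 6 MHC class II genes (left) and of 4 genes listed for yolk sac-derived sdCAMs (right). Points are the 9 Ccr2-/- sdCAM libraries, 3 a group, and short bars are arithmetic means. The class II points of BLZ945 lie above those of CTL and the yolk sac-side points below, except that Timd4 overlaps.

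Interferon-stimulated genes are turned on when the factor ISGF3, or IRF3 directly, binds an element whose core is a pair of GAAA runs with any 2 bases between them. Promoters of a pair of these genes are printed because they hold the core and the data bear on them: Rsad2, which encodes viperin, and Cxcl10, a chemokine for T cells. The 250 bases before the RefSeq start are given on the gene's strand in GRCm38.p6, with the core in capitals (a pair of TTTC runs where it is on the other strand), Rsad2 from chr12:26456453-26456702 and Cxcl10 from chr5:92348890-92349139, both on the minus strand.
Rsad2: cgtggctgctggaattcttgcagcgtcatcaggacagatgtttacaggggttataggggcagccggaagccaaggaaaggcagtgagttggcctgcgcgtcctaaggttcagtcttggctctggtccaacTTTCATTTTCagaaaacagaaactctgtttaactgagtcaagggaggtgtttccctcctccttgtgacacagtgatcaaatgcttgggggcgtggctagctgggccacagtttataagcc
Cxcl10: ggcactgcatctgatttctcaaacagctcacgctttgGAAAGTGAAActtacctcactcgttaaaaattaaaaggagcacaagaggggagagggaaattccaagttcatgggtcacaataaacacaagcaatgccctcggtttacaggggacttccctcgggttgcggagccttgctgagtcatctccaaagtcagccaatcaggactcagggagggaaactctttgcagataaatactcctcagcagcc
The core begins 120 bases before the start in Rsad2 and 213 bases before it in Cxcl10. Searched on both strands, it is in 2.98% of 32851 promoters of 250 bases, and in 5 of the 11 promoters found for the 15 interferon-stimulated genes tested (Cxcl10, Ifit1, Ifit3, Isg15 and Rsad2). As above, a match describes letters only.

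Interferon-stimulated genes stood lower in repopulated sdCAMs, although none of them passed edgeR's adjustment. Of 15 genes, 7 were lower at an unadjusted p under 0.05 (against 4.71% of all genes), none was higher, 14 of 15 log2 differences were below 0, and the median was -0.65. Rsad2 lay at 436, 445 and 586 CPM in the CTL libraries and 163, 219.8 and 293 CPM in the BLZ945 libraries, with every BLZ945 value below every CTL value, and at 50.1, 78.5 and 40.4 CPM without LPS. It was 2.17-fold lower in BLZ945 (log2 difference -1.12, SE 0.26, adjusted p = 0.289) and the only one of the 15 that DESeq2 called (adjusted p = 0.00813). Its rise with LPS was 3.12 (adjusted p = 4.85e-06) in CTL and 2.0 (adjusted p = 0.00013) in BLZ945. Cxcl10 was at 148, 122 and 185 CPM in the CTL libraries and 45, 64.7 and 101 CPM in the BLZ945 libraries (log2 difference -1.11, SE 0.47, adjusted p = 0.558), again without overlap.

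Ifit1 and Ifit2, which bind viral RNA, differed by -1.01 (adjusted p = 0.523) and -1.14 (adjusted p = 0.43). Ifit2 lay at 145, 135 and 281 CPM in the CTL libraries and 69.1, 88.4 and 97.8 CPM in the BLZ945 libraries, and the untreated libraries at 71.8, 155 and 70.4 CPM overlapped both. Oasl1 and Oasl2, of the oligoadenylate synthetase-like family, differed by -0.81 and -0.60, and Cmpk2, a mitochondrial nucleotide kinase, by -1.04. The groups did not overlap in Ifit2, Oasl1, Oasl2 or Cmpk2, and did in Ifit1, at 272, 237 and 568 CPM in the CTL libraries and 169.5, 125 and 238 CPM in the BLZ945 libraries. Irf7, the factor that amplifies interferon production, did not overlap but differed less (893, 932 and 1077 CPM in the CTL libraries and 821, 765 and 855 CPM in the BLZ945 libraries, log2 difference -0.25, SE 0.23, adjusted p = 0.826). Rtp4, at 651, 584 and 644 CPM in the CTL libraries and 528, 479.7 and 637 CPM in the BLZ945 libraries, Isg15, at 134, 128 and 158 CPM in the CTL libraries and 102, 85.4 and 139 CPM in the BLZ945 libraries, and Mx1, at 36.9, 34 and 71.5 CPM in the CTL libraries and 37.5, 36.3 and 52.2 CPM in the BLZ945 libraries, overlapped. Against untreated sdCAMs, 11 of the 15 were called higher in CTL and 8 in BLZ945. The interferon gene Ifnb1 had no count in any of the 9 libraries at 12 hours, which allows up to 0.38 unscaled CPM in the shallowest LPS library (3 counts, counting error only). Without B4f, 8 were lower at an unadjusted p under 0.05 and the median was -0.91. Over all alternatives run the median was -0.91 to -0.46, and 3 to 10 of the 15 were lower at an unadjusted p under 0.05.

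**Figure D3:**
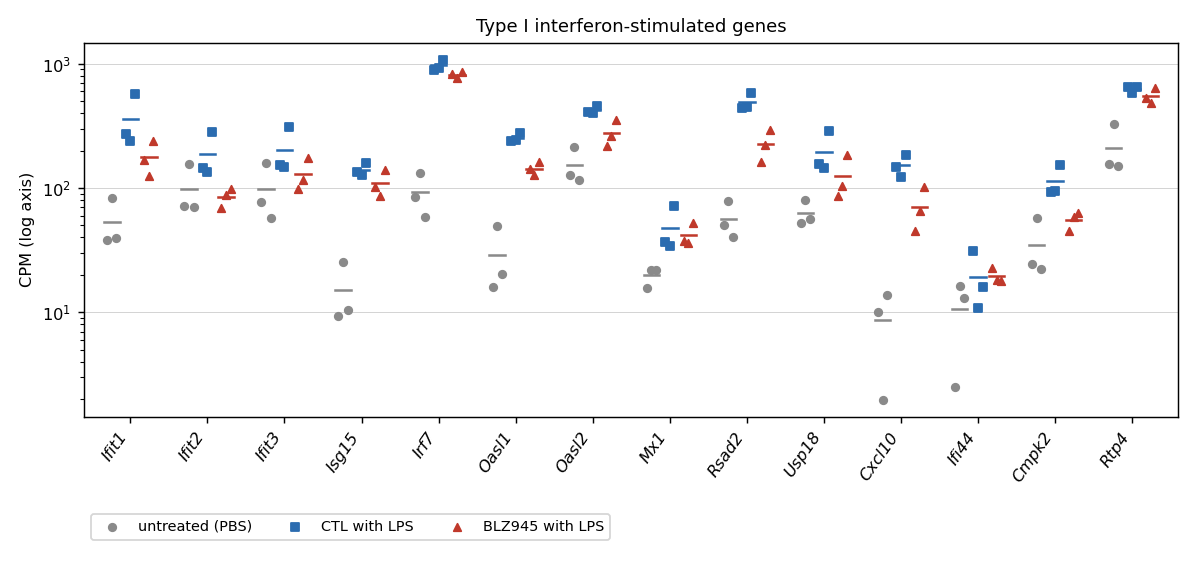
Level in CPM (log axis) of 14 of the 15 interferon-stimulated genes in the 9 Ccr2-/- sdCAM libraries. Points are libraries, 3 a group, and short bars are arithmetic means. Rsad2, Cxcl10, Cmpk2, Oasl1, Oasl2 and Ifit2 in BLZ945 lie below CTL without overlap, with those of Rsad2, Cxcl10, Oasl1 and Oasl2 above untreated, whereas Mx1, Isg15 and Rtp4 overlap.

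Among 19 genes of LPS sensing and NF-kappaB, 5 were lower in BLZ945 at an unadjusted p under 0.05 and 0 were higher by edgeR. Over all genes 4.71% were lower and 3.64% higher. Of the 19, 0 were called by edgeR or DESeq2, and 16 of 19 log2 differences were below 0 (median -0.36). Tlr4, the receptor for LPS, was at 175, 136 and 159 CPM in the CTL libraries and 135, 117 and 114 CPM in the BLZ945 libraries (log2 difference -0.36, SE 0.15, adjusted p = 0.565). No value overlapped, and LPS lowered the gene in both groups from 384, 362 and 409 CPM. The co-receptor Cd14 overlapped, with 2272, 2676 and 2105 CPM in the CTL libraries and 2214, 1777 and 1772 CPM in the BLZ945 libraries. Nfkb2, the precursor of the p52 subunit, lay at 231, 223 and 187 CPM in the CTL libraries and 126, 147 and 142 CPM in the BLZ945 libraries (log2 difference -0.63, SE 0.16, adjusted p = 0.32), with a DESeq2 adjusted p of 0.024, and it rose with LPS by 2.29 (adjusted p = 6.74e-07) in CTL and 1.66 (adjusted p = 8.42e-06) in BLZ945. The inhibitors of the pathway did not stand together. Tnfaip3, the ubiquitin editing enzyme A20, was at 600.3, 734 and 618 CPM in the CTL libraries and 479, 499 and 327 CPM in the BLZ945 libraries (log2 difference -0.58, SE 0.18, adjusted p = 0.466), and Irak3, a decoy kinase of the TLR pathway, at 389.6, 463 and 333 CPM in the CTL libraries and 288, 319 and 196 CPM in the BLZ945 libraries (log2 difference -0.56, SE 0.23, adjusted p = 0.558), both without overlap. Nfkbia, the inhibitor IkappaB-alpha, lay at 1159, 1243 and 1231 CPM in the CTL libraries and 1492, 1167 and 1329 CPM in the BLZ945 libraries, and its values overlapped (log2 difference 0.13, SE 0.14, adjusted p = 0.863). Ticam2, the TLR4 adaptor TRAM, was at 65.8, 37.1 and 29.3 CPM in the CTL libraries and 17.5, 17.3 and 32.2 CPM in the BLZ945 libraries and overlapped (log2 difference -0.98, SE 0.34, adjusted p = 0.503). Without B4f, 3 of the 19 were lower at an unadjusted p under 0.05 and the median was -0.30.

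Of 19 cytokines and cytokine receptors tested, 5 were lower and 1 higher at an unadjusted p under 0.05, with a median of -0.38, beside 4.71% lower and 3.64% higher over all genes. Il1rn, the antagonist that blocks the interleukin 1 receptor, had the smallest p. It lay at 2935, 2848 and 2842 CPM in the CTL libraries and 1925, 1569 and 1591 CPM in the BLZ945 libraries after 6.03, 3.71 and 6.64 CPM without LPS. The groups were apart, with a spread of 52.2 CPM (SD) in CTL and 199 CPM in BLZ945, and the level was 1.7-fold lower in BLZ945 (log2 difference -0.76, SE 0.16, adjusted p = 0.222). DESeq2 gave an adjusted p of 0.000372, and the difference stayed under the fold limit. Il1b, which encodes interleukin 1 beta, was at 106, 112 and 95.8 CPM in the CTL libraries and 21.3, 63.1 and 63.3 CPM in the BLZ945 libraries, with B2m the lowest (log2 difference -1.09, SE 0.48, adjusted p = 0.582). Il1r2, the decoy receptor of the same cytokine, was the 1 higher gene, at 40.9, 62 and 59.8 CPM in the CTL libraries and 175, 87 and 53.7 CPM in the BLZ945 libraries, and overlapped (log2 difference 0.95, SE 0.40, adjusted p = 0.558).

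Tnfrsf1b, the second TNF receptor, was at 1004, 926 and 774 CPM in the CTL libraries and 581, 679.8 and 506 CPM in the BLZ945 libraries (log2 difference -0.61, SE 0.15, adjusted p = 0.332), without overlap. Csf1, a ligand of CSF1R, lay at 42.4, 24.1 and 45.4 CPM in the CTL libraries and 12.9, 18.8 and 29 CPM in the BLZ945 libraries (log2 difference -0.88, SE 0.36, adjusted p = 0.549), and V2m overlapped the BLZ945 range. Il10ra, the receptor of interleukin 10, was at 192, 244 and 216 CPM in the CTL libraries and 137, 210.4 and 104 CPM in the BLZ945 libraries and overlapped (log2 difference -0.53, SE 0.23, adjusted p = 0.565). Tnf, at 53.8, 64.2 and 55.1 CPM in the CTL libraries and 39.6, 64.2 and 29.4 CPM in the BLZ945 libraries, and Il6, at 27.2, 21.1 and 28.1 CPM in the CTL libraries and 12.3, 8.76 and 26.6 CPM in the BLZ945 libraries, overlapped as well (log2 difference -0.38, SE 0.29, adjusted p = 0.769, and log2 difference -0.68, SE 0.69, adjusted p = 0.852). Il4ra, at 1319.8, 1040.0 and 1347 CPM in the CTL libraries and 1778, 1111 and 863 CPM in the BLZ945 libraries, was spread more widely among the BLZ945 libraries than the groups lay apart. Against untreated, 11 of the 19 were called higher in CTL and 9 in BLZ945, and 3 were called lower in each.

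Chemokines lay on both sides. Of 18, 2 were higher and 4 lower at an unadjusted p under 0.05 (against 3.64% and 4.71% of all genes), with a median of -0.14. Cxcl1, which attracts neutrophils, lay at 40.4, 33.6 and 37.4 CPM in the CTL libraries and 14.8, 12.4 and 18.8 CPM in the BLZ945 libraries, and Ccl4, which attracts T cells and monocytes, at 121, 106 and 118 CPM in the CTL libraries and 50.1, 82.2 and 101 CPM in the BLZ945 libraries. Both were lower without overlap (log2 difference -1.28, SE 0.44, adjusted p = 0.503, and log2 difference -0.57, SE 0.24, adjusted p = 0.56), beside Cxcl10 and Pf4 (log2 difference -0.54, SE 0.23, adjusted p = 0.559). Ccl8 and Ccl12, ligands of monocyte and T cell receptors, were higher without overlap, Ccl8 at 114, 162 and 107 CPM in the CTL libraries and 198, 172 and 237 CPM in the BLZ945 libraries and Ccl12 at 752, 593 and 604 CPM in the CTL libraries and 887, 790.0 and 1123 CPM in the BLZ945 libraries (log2 difference 0.66, SE 0.25, adjusted p = 0.523, and log2 difference 0.52, SE 0.21, adjusted p = 0.539). Cxcl13, which attracts B cells, did not overlap either, with means of 575 ± 157 CPM in CTL and 1115 ± 284 CPM in BLZ945 (SD, n = 3), at an adjusted p = 0.602. With LPS, 13 of the 18 rose in CTL and 12 in BLZ945.

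Acute phase, metal and antimicrobial genes had a median log2 difference of 0.26. Of 14, 2 were higher and 2 lower at an unadjusted p under 0.05 (against 3.64% and 4.71% of all genes). Saa1 was at 38.6, 54.2 and 56.5 CPM in the CTL libraries and 215, 63.8 and 67.8 CPM in the BLZ945 libraries and Hp, haptoglobin, at 139, 341 and 178 CPM in the CTL libraries and 477, 499 and 214 CPM in the BLZ945 libraries, both listed at 0 in all untreated libraries (log2 difference 1.22, SE 0.44, adjusted p = 0.523, and log2 difference 0.85, SE 0.37, adjusted p = 0.582). Saa1 did not overlap and Hp did, and for Saa1 library B2m was far above the others of its group. Lcn2, which binds bacterial iron carriers, was also highest in B2m, at 6301, 6474 and 6835 CPM in the CTL libraries and 13658, 7396 and 8296 CPM in the BLZ945 libraries, without overlap (log2 difference 0.58, SE 0.64, adjusted p = 0.868). Steap4, a metalloreductase, was lower without overlap at 876, 755 and 828 CPM in the CTL libraries and 499, 518 and 288 CPM in the BLZ945 libraries (log2 difference -0.91, SE 0.25, adjusted p = 0.356), and rose with LPS by 9.34 (adjusted p = 1.08e-08) and 8.43 (adjusted p = 1.75e-08). Slc40a1, the iron exporter ferroportin, fell from 1092, 786 and 993 CPM to 18.2, 33 and 27.4 CPM in CTL and 3.23, 20.3 and 15.4 CPM in BLZ945 libraries, which overlapped (log2 difference -1.02, SE 0.45, adjusted p = 0.575). Of the 14 LPS response genes, 3 were lower (Il1rn, Il1b and Tnfaip3), none was higher by edgeR at an unadjusted p under 0.05, and the median of -0.11 changed sign to 0.06 without B4f and to 0.03 without V1m.

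**Figure D4:**
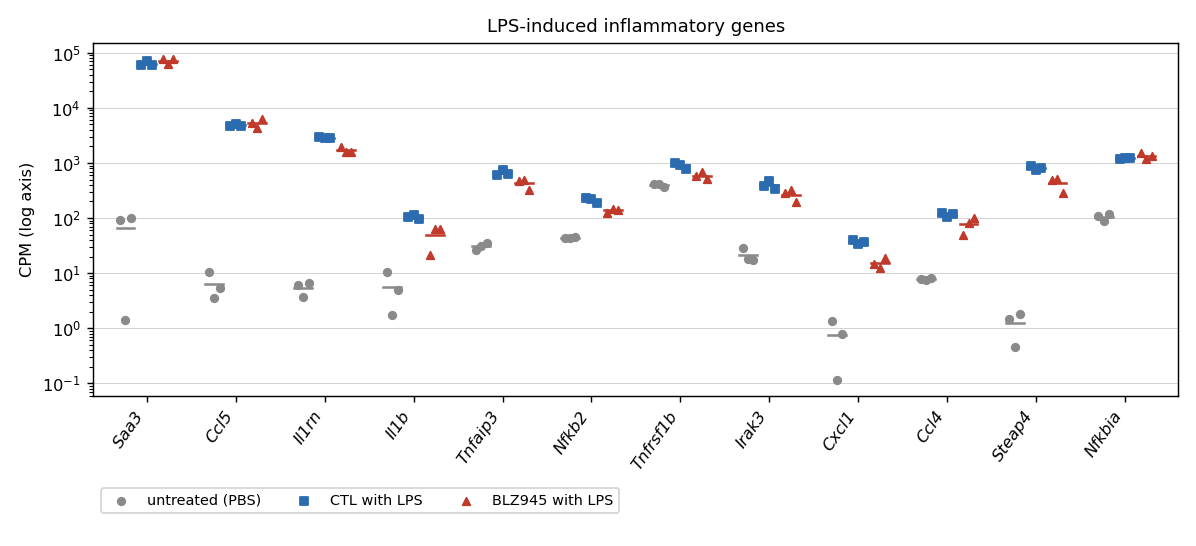
Level in CPM (log axis) of 12 inflammatory genes that LPS induces, in the 9 Ccr2-/- sdCAM libraries. Points are libraries, 3 a group, and short bars are arithmetic means. All points of both LPS groups lie above the untreated ones. Il1rn, Il1b, Tnfaip3, Nfkb2, Tnfrsf1b, Irak3, Cxcl1, Ccl4 and Steap4 are lower in BLZ945 than in CTL without overlap, and Saa3, Ccl5 and Nfkbia overlap.

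Scavenger and efferocytosis receptors held 5 lower and 1 higher of 14 at an unadjusted p under 0.05 (median -0.21), against 4.71% and 3.64% of all genes. Besides Cd163, Colec12 and Timd4, Cd36, which takes up oxidised lipids, was lower at 79.3, 58.1 and 95.4 CPM in the CTL libraries and 34.7, 14.7 and 54 CPM in the BLZ945 libraries without overlap (log2 difference -1.17, SE 0.37, adjusted p = 0.466), after 812, 491 and 578 CPM without LPS. Mrc1, which may not be independent of the sort, was lower as well (log2 difference -0.38, SE 0.16, adjusted p = 0.56). Marco, which binds bacteria, was the higher one, at 23.7, 27.3 and 10.9 CPM in the CTL libraries and 107, 49.7 and 145 CPM in the BLZ945 libraries (log2 difference 2.28, SE 0.78, adjusted p = 0.494). Its lowest BLZ945 value exceeded the highest CTL value, with a wide spread, and by DESeq2 the adjusted p was 0.73. Msr1, scavenger receptor A, rose with LPS to 4451, 3838 and 4048 CPM in CTL and 3661, 3675 and 3126 CPM in BLZ945 (log2 difference -0.24, SE 0.12, adjusted p = 0.632).

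Complement genes lay on both sides. The 3 chains of C1q, which starts the classical pathway and which macrophages supply, were higher without overlap: C1qa at 2624, 2929 and 2712 CPM in the CTL libraries and 3214, 3399.7 and 4449 CPM in the BLZ945 libraries, with C1qb and C1qc at log2 differences of 0.28 and 0.29 (log2 difference 0.42, SE 0.14, adjusted p = 0.494 for C1qa). C4b and the receptor C3ar1 were lower, C3ar1 at 868, 866 and 879.7 CPM in the CTL libraries and 608, 623 and 786 CPM in the BLZ945 libraries (log2 difference -0.37, SE 0.13, adjusted p = 0.51). The median over 11 genes was -0.14, and it changed sign to 0.03 without V1m.

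Lysosomal and disease-associated macrophage genes lay mostly above 0 in log2 difference. Of these, 5 of 16 were higher and 0 lower at an unadjusted p under 0.05 by edgeR (against 3.64% and 4.71% of all genes). In 14 of 16 the log2 difference was above 0, and the median was 0.25. Ctsd, the protease cathepsin D, was at 854, 986 and 1141 CPM in the CTL libraries and 1399, 1196 and 1455 CPM in the BLZ945 libraries (log2 difference 0.44, SE 0.14, adjusted p = 0.451). Clec7a, the beta-glucan receptor dectin-1, fell steeply with LPS from 182, 118 and 119 CPM to 5.76, 3.69 and 2.76 CPM in CTL and 13.8, 6.94 and 10.1 CPM in BLZ945 libraries (log2 difference 1.34, SE 0.35, adjusted p = 0.332), and DESeq2 called it higher in BLZ945 (adjusted p = 0.0363). Cst7, a protease inhibitor, Cd9, a tetraspanin, and Lgals3, galectin 3, differed by 0.67, 0.66 and 1.29, each without overlap. Ctsb and Ctsz overlapped, at log2 differences of 0.02 and 0.09. Apoe, the lipid carrier, lay at 11049, 14289.5 and 12180.1 CPM in the CTL libraries and 15564, 18097 and 16891 CPM in the BLZ945 libraries (log2 difference 0.43, SE 0.11, adjusted p = 0.332), and the lysozyme gene Lyz2 at 3176, 3496 and 2928 CPM in the CTL libraries and 2998, 5283 and 5526 CPM in the BLZ945 libraries, where B2m was among the CTL values (log2 difference 0.52, SE 0.19, adjusted p = 0.523). Of 10 sdCAM markers, these 2 were higher and Mrc1, Pf4 and Cd38, an NAD hydrolase at 6371, 5464 and 5081 CPM in the CTL libraries and 4616, 4556 and 3567 CPM in the BLZ945 libraries, were lower, with a median of -0.05.

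Macrophage identity factors held 3 higher and 0 lower of 15 by edgeR at an unadjusted p under 0.05 (median 0.37), against 3.64% and 4.71% of all genes. Runx3 was at 6.28, 9.06 and 4.2 CPM in the CTL libraries and 36.8, 16.2 and 11.2 CPM in the BLZ945 libraries without overlap and Klf2 at 23.7, 8.11 and 27.4 CPM in the CTL libraries and 31.3, 26.7 and 83.3 CPM in the BLZ945 libraries with overlap (log2 difference 1.71, SE 0.58, adjusted p = 0.494, and log2 difference 1.26, SE 0.48, adjusted p = 0.535). Spi1, which encodes PU.1, and Cebpb overlapped, at log2 differences of 0.11 and 0.19. Along the CSF receptor axis, Csf1r, the target of BLZ945, was at 2707, 3078 and 2834 CPM in the CTL libraries and 2449.9, 2979.9 and 2152 CPM in the BLZ945 libraries, which overlapped 8 weeks after treatment (log2 difference -0.18, SE 0.13, adjusted p = 0.746), and fell with LPS in both groups from 9544, 8558 and 8968 CPM. Of 7 genes on this axis 1 was lower (Csf1, above), and the median was -0.26. Csf2rb, the beta chain of the GM-CSF receptor, overlapped (log2 difference -0.26, SE 0.16, adjusted p = 0.705).

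MHC class I presentation did not go with class II. Of 10 genes 3 were lower at an unadjusted p under 0.05 (against 4.71% of all genes) and none higher by edgeR, with a median of -0.02. They were the peptide transporter genes Tap1 and Tap2 and the coactivator Nlrc5, with Tap1 at 790.4, 548 and 482 CPM in the CTL libraries and 412, 418 and 331 CPM in the BLZ945 libraries and Nlrc5 at 79, 54.4 and 54.6 CPM in the CTL libraries and 26.6, 45.7 and 25.9 CPM in the BLZ945 libraries (log2 difference -0.65, SE 0.22, adjusted p = 0.494, log2 difference -0.45, SE 0.21, adjusted p = 0.594 and log2 difference -0.94, SE 0.36, adjusted p = 0.535, in this order). The gene B2m (beta-2 microglobulin, not the library of that name) and H2-D1, which encode the chains themselves, overlapped at log2 differences of 0.11 and -0.02. Cell cycle genes gave 0 of 11 at an unadjusted p under 0.05 and 0 calls by edgeR or DESeq2, with a median of 0.14. Mcm3, part of the replicative helicase, lay at 29.7, 37.4 and 38.7 CPM in the CTL libraries and 48.6, 45.9 and 40.6 CPM in the BLZ945 libraries, and Pcna, the sliding clamp of DNA polymerase, at 29, 25.6 and 26.4 CPM in the CTL libraries and 29, 33.2 and 26.9 CPM in the BLZ945 libraries. The proliferation marker Mki67 was at 4.71, 5.37 and 5.04 CPM in the CTL libraries and 2.83, 14.4 and 9.9 CPM in the BLZ945 libraries, which overlapped. Of the 2 loci the study named from chromatin data for repopulation, Tlr4 is described above, and Zfp932, a zinc finger gene, was near the floor of counting at 0.654, 1.16 and 0.721 CPM in the CTL libraries and 0.303, 0.748 and 1.76 CPM in the BLZ945 libraries (median of both -0.10).

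Markers of other cells were counted at levels that in part moved with the treatment. All 10 microglial markers had a log2 difference above 0 (median 0.45), 3 of them at an unadjusted p under 0.05 (Sparc and Olfml3 among them), against 3.64% of all genes. Their summed level was 1410.2 to 1760.0 CPM in CTL and 2096 to 2219 CPM in BLZ945 libraries, after 5588 to 7585 CPM without LPS. Sparc lay at 159, 249 and 275 CPM in the CTL libraries and 394, 336 and 347 CPM in the BLZ945 libraries. The receptor P2ry12, a defining microglial gene, was at 121, 142 and 137 CPM in the CTL libraries and 134, 181 and 135 CPM in the BLZ945 libraries and overlapped (log2 difference 0.17, SE 0.17, adjusted p = 0.852), as did Tmem119 at 126, 204 and 239 CPM in the CTL libraries and 187, 209.7 and 335 CPM in the BLZ945 libraries. Without B4f the median was 0.21. Lat2 lay higher in MG than in sdCAMs (below), so the summed microglial level stands beside its difference, and its part in the result was not tested.

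Of 9 monocyte markers 6 were tested, with Hp higher and a median of 0.56. The defining markers Ly6c2, at 0, 2.74 and 1.2 CPM in the CTL libraries and 1.41, 2.67 and 1.47 CPM in the BLZ945 libraries, and Chil3, at 0 in 5 of the 6 libraries, were at or near 0. Of 9 neutrophil markers 3 were tested, at a median of 0.58, and Mmp8 was higher at 16.6, 18.3 and 28.3 CPM in the CTL libraries and 108, 29.1 and 50.4 CPM in the BLZ945 libraries, without overlap (log2 difference 1.57, SE 0.45, adjusted p = 0.378). S100a8 was highest in B2m at 60.2, 70.4 and 91.5 CPM in the CTL libraries and 212, 72.7 and 47.9 CPM in the BLZ945 libraries, and S100a9, its partner, lay at 0.916, 0.632 and 0.48 CPM in CTL and 2.63, 0.214 and 3.53 CPM in BLZ945 libraries, with Ngp, Camp and Ltf at 2.52 CPM or less. Csf3r overlapped (log2 difference -0.09, SE 0.18, adjusted p = 0.932). Summed neutrophil markers were 335 to 385 CPM in CTL and 305 to 575 CPM in BLZ945 libraries, and summed monocyte markers 307 to 451 CPM in CTL and 397 to 566 CPM in BLZ945 libraries. Both sums overlapped between groups, and their part in Saa1, Lcn2 and Il1r2 was not tested.

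Of 12 lymphocyte markers only Cd79b was tested, and 5 never passed 3 counts in any of the 9 libraries. B4f alone held Cd3g at 6.96 CPM and Trbc2 at 2.06 CPM. Of 8 dendritic cell markers 6 were tested, with Cd209a lower and a median of -0.05. Zbtb46, a factor of classical dendritic cells, lay at 11.9, 6.85 and 8.53 CPM in the CTL libraries and 7.68, 10.7 and 2.65 CPM in the BLZ945 libraries and Bst2 at 676, 628 and 714 CPM in the CTL libraries and 696, 526 and 848 CPM in the BLZ945 libraries, both with overlap. Vascular and fibroblast markers gave 0 of 6 at an unadjusted p under 0.05 and 0 calls by edgeR or DESeq2 (median 0.74), with Dcn at 22.5, 23.8 and 20.7 CPM in the CTL libraries and 30.3, 25.5 and 43.7 CPM in the BLZ945 libraries and Vtn at 3.01, 11.2 and 4.56 CPM in the CTL libraries and 8.08, 10.7 and 16.5 CPM in the BLZ945 libraries. Their sum was 29.6 to 39.1 CPM in CTL and 45.3 to 62 CPM in BLZ945 libraries, which did not overlap.

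Of 8 neural and choroid markers tested, 2 were lower and none higher by edgeR at an unadjusted p under 0.05 (median -0.42), against 4.71% of all genes lower. Aqp4, the water channel of astrocytes, was at 3.66, 9.27 and 5.28 CPM in the CTL libraries and 0.404, 0 and 0.098 CPM in the BLZ945 libraries, without overlap and near 0 in BLZ945 (adjusted p = 0.228), and the phosphodiesterase Enpp2 at 42.5, 62 and 66.7 CPM in the CTL libraries and 29.1, 8.65 and 5.1 CPM in the BLZ945 libraries (log2 difference -2.0, SE 0.61, adjusted p = 0.447). Mbp of myelin overlapped (log2 difference -0.13, SE 0.27, adjusted p = 0.942). The sum was 197 to 384 CPM in CTL and 118 to 254 CPM in BLZ945 libraries. Gja1, also an astrocyte gene, stood lower beside Aqp4, and Gfap, the astrocyte filament, was at 6.93, 2.95 and 14.9 CPM in the CTL libraries and 12.4, 5.45 and 14.7 CPM in the BLZ945 libraries, which overlapped. Erythroid markers were tested in 0 of 5, with sums of 0.527 to 46.1 CPM in CTL and 0 to 0.588 CPM in BLZ945 libraries, and V4f held the most. Immediate early and dissociation genes gave 0 of 11 at an unadjusted p under 0.05 and 0 calls by either tool (median 0.19). Dusp1 lay at 1208, 1534 and 1281 CPM in the CTL libraries and 2297, 1368 and 928 CPM in the BLZ945 libraries and Zfp36 at 559, 558 and 602 CPM in the CTL libraries and 759.6, 597 and 605 CPM in the BLZ945 libraries, with B2m highest in both.

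**Figure D5:**
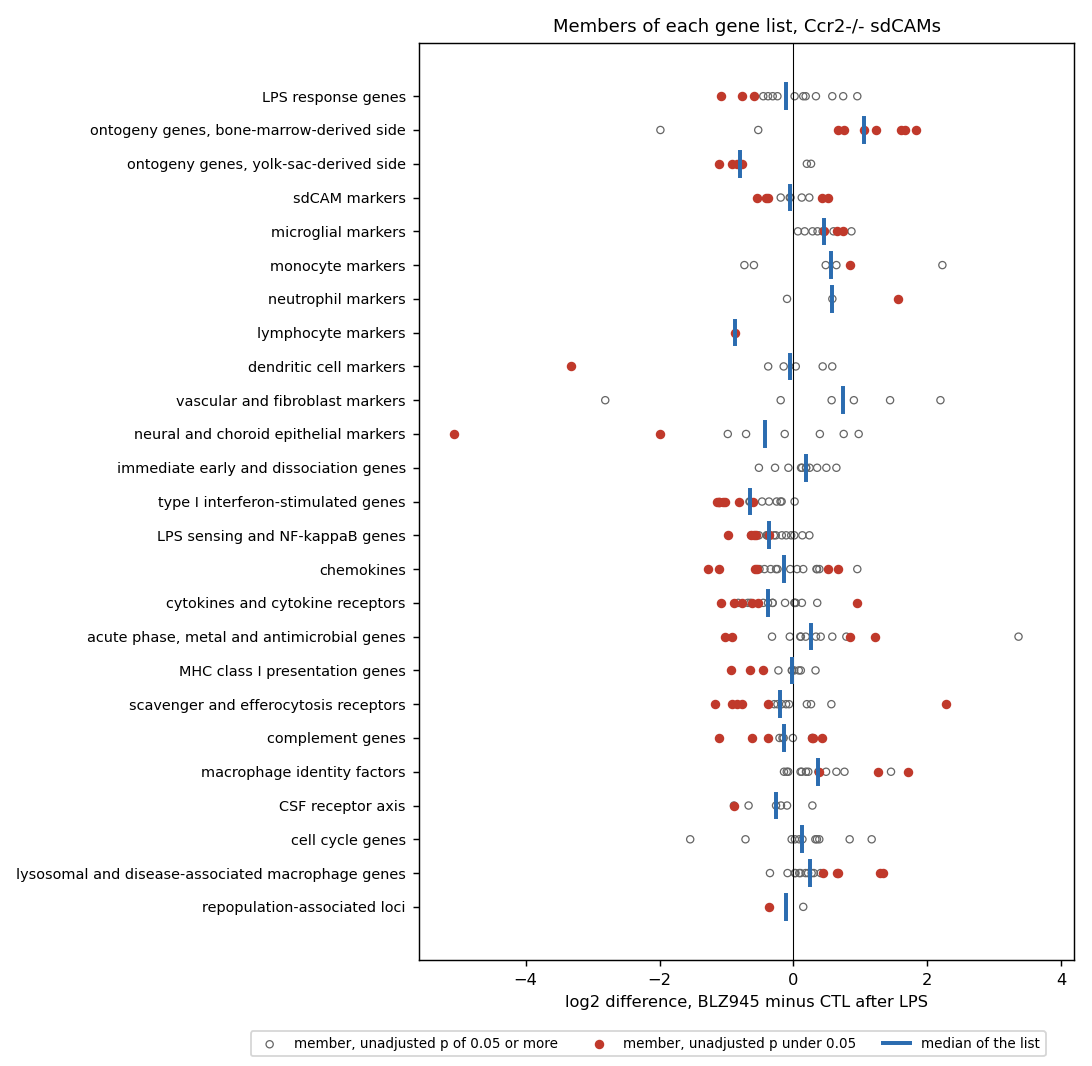
Log2 difference of BLZ945 minus CTL after LPS for each tested member of the 25 gene lists with a tested member. Red points have an unadjusted p under 0.05 by edgeR, open points do not, and blue vertical bars are list medians. Bone marrow-side genes (9 tested) stand to the right, with a median of 1.06. Yolk sac-side (6) and interferon-stimulated genes (15) stand to the left, with medians of -0.80 and -0.65. The other lists with 10 or more tested members have medians between -0.38 and 0.45. The other lists with fewer tested members range from -0.87 (lymphocyte markers, 1 tested) to 0.74 (vascular and fibroblast markers, 6 tested).

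WT mice allow a test of whether the BLZ945 difference itself depended on the genotype. Of 13258 genes, 0 (0%) were called for the interaction by edgeR, 1332 had an unadjusted p under 0.05, and DESeq2 called 26. The smallest adjusted p by edgeR was 0.251, for Inpp4b, a phosphoinositide phosphatase. It lay at 30.1 ± 8.66 CPM in CTL and 34 ± 10.8 CPM in BLZ945 in Ccr2-/- sdCAMs, and at 5.28 ± 2.16 and 80.1 ± 29.2 CPM in WT (SD, n = 3, on the scale of this 18-library fit). WT sdCAM libraries were shallower, at 1705930 to 7699790 counts, and the half-width of the 95% interval of the interaction had a median of 1.94 on the log2 scale. The WT BLZ945 library of mouse 12 stood apart from the other 2 of its group: Saa3 took 21.0% of its counts, against 2.39% and 1.79%, and 23.0% to 35.8% in WT CTL libraries. It carries the label note IEG_correction, as do all 3 WT CTL libraries but not the other WT BLZ945 libraries. Without it the interaction was called for 1329 genes, 941 higher and 388 lower, so the count of 0 rests on this library. In that fit every WT CTL library and no WT BLZ945 library carries the note, so BLZ945 and the note cannot be told apart in WT. The WT BLZ945 libraries left in it, of mice 8 and 11, hold 2433287 and 1705930 counts. With the note as a covariate and all libraries kept, edgeR called 0 genes, 932 had an unadjusted p under 0.05, and the smallest adjusted p was 0.565.

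By the smallest p, Tspan13, a tetraspanin, Timm22, a mitochondrial import channel, and Cryab, a small heat shock protein, had a more positive BLZ945 difference in Ccr2-/- sdCAMs, and Inpp4b, Sema4d and Dtx4 a more negative one. Timm22 was at 49.3 ± 19.4 and 49.9 ± 10.04 CPM in Ccr2-/- CTL and BLZ945, and at 66.2 ± 29.8 and 10.3 ± 2.68 CPM in WT. Sema4d, a semaphorin, was at 43.5 ± 6.88 and 29.5 ± 12.4 CPM in Ccr2-/-, and at 9.16 ± 3.63 and 57.3 ± 29.2 CPM in WT. None of these passed edgeR's adjustment with all libraries, whereas DESeq2 called all 6, with an adjusted p of 0.000598 for Inpp4b to 0.013 for Timm22. Without the WT library of mouse 12 the interaction was -4.24 (adjusted p = 0.000215 by edgeR) for Inpp4b, -3.72 (adjusted p = 0.000195 by edgeR) for Sema4d, -3.54 (adjusted p = 0.00231 by edgeR) for Dtx4 and 2.74 (adjusted p = 0.00653 by edgeR) for Timm22. H2-Eb1 differed between BLZ945 and CTL by 0.24 in WT sdCAMs (interaction 1.63, SE 0.76, adjusted p = 0.484) and Rsad2 by 0.51 (interaction -1.58, SE 0.69, adjusted p = 0.475). For Sh3bgrl2 the WT difference was -1.86 and the interaction -0.23 (adjusted p = 0.936), and for Cd209a they were -2.55 and -0.72 (adjusted p = 0.837). Over the 15 interferon-stimulated genes the median interaction was -1.18, with 5 lower and none higher at an unadjusted p under 0.05 by edgeR (against 5.82% and 4.22% of all genes), and the median in WT itself was 0.51. Bone marrow-side genes had a median interaction of 0.78, with 2 higher and 1 lower. Yolk sac-side genes had a median interaction of 0.12, with 0 higher and 1 lower of 6. In WT itself the yolk sac-side median was -0.59, with 0 higher and 2 lower. Without the WT library of mouse 12, the interaction was 1.95 (adjusted p = 0.0911 by edgeR) for H2-Eb1, -1.85 (adjusted p = 0.0856 by edgeR) for Rsad2, -0.90 (adjusted p = 0.382 by edgeR) for Sh3bgrl2 and -1.28 (adjusted p = 0.503 by edgeR) for Cd209a. The interferon-stimulated genes then had a median of -1.39, with 7 lower and 1 higher at an unadjusted p under 0.05 (3 and 1 called by edgeR), where 10.8% of all genes were lower and 12.5% higher at that p, and 2.75% and 6.67% were called. Bone marrow-side genes then had a median of 1.0, with 4 higher and 1 lower (2 and 0 called). Yolk sac-side genes then had a median of -0.26, with 0 higher and 2 lower (0 and 1 called). Of these interactions only the yolk sac-side median changed sign without that library, and the counts of called genes depend on it. As said above, BLZ945 and the label note cannot be told apart in WT in the fit without it, so its adjusted p-values are not for the genotype alone. The values of the lists, H2-Eb1, Rsad2, Sh3bgrl2 and Cd209a without it were added after seeing the data.

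MG of the same Ccr2-/- mice allow the same test between cell types. Of 12890 genes, 2 (0.0155%) were called, Lat2 and Rnf122, 802 had an unadjusted p under 0.05, and DESeq2 called 44. Both cell types came from one animal, and with the mouse as a block 0 genes were called by edgeR, 664 had an unadjusted p under 0.05, and the smallest adjusted p was 0.102, for Lat2. In MG, Lat2 lay at 103 ± 8.49 CPM in CTL and 107 ± 15.9 CPM in BLZ945, and in sdCAMs at 17.6 ± 2.04 and 66 ± 12.3 CPM (SD, n = 3, 18-library scale). The interaction was 1.85 on the log2 scale (SE 0.27, adjusted p = 0.0224 by edgeR). Rnf122, a ubiquitin ligase, had 0, 1 and 0 counts in the sdCAM CTL libraries and 47, 11 and 65 in the BLZ945 libraries, a ratio of 108 after scaling for depth, with a counting interval of 19.0 to 4284. In untreated sdCAMs it had 115, 72 and 138 counts, so that CTL lay lowest and BLZ945 between, and its levels in MG were 10.1 ± 2.62 and 10.4 ± 1.48 CPM. Its fitted interaction rests on that single CTL count and had an adjusted p of 0.0306 by edgeR, and of 0.189 with the block.

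Genes next in rank did not pass edgeR's adjustment, whereas DESeq2 called Nuak1, Vcam1, Trpm4 and Aph1c, with an adjusted p of 5.29e-05 for Vcam1 to 0.00138 for Nuak1. With median-of-ratios factors, Vcam1 passed by edgeR too (adjusted p = 0.0486). Nuak1, an AMPK-related kinase, had an interaction of 3.89 (adjusted p = 0.106 by edgeR), and lay at 0.367 ± 0.217 and 6.37 ± 4.24 CPM in sdCAMs. Vcam1, an adhesion molecule, was at 1180.2 ± 67.6 and 806 ± 119 CPM in sdCAMs and at 183 ± 59.5 and 403 ± 94 CPM in MG (interaction -1.69, adjusted p = 0.058 by edgeR). Trpm4 and Aph1c, a subunit of gamma-secretase, had interactions of -2.19 and -4.3. Samd9l differed by 0.90 in MG (interaction -1.94, adjusted p = 0.106 by edgeR). Ly9 was at 20.1 ± 4.57 and 47.8 ± 7.68 CPM in MG, a log2 difference of 1.25, and its interaction was 0.00 (SE 0.36). Interferon-stimulated genes had a median interaction of -0.54 (0 higher and 4 lower of 15 at an unadjusted p under 0.05 by edgeR, against 3% and 3.22% of all genes), beside a median of 0.10 in MG. NF-kappaB genes had -0.53 (0 higher and 6 lower of 19) and chemokines -0.91 (1 higher and 7 lower of 18). Yolk sac-side genes had -0.09 (0 higher and 2 lower of 6), beside a median of -0.91 in MG, where Cd163 was hardly counted (above).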

How the data were processed

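sdCAMs of Ccr2-/- mice were profiled by bulk RNA-seq with SMARTer and Nextera XT libraries and single reads. The authors deposited raw counts per gene without unique molecular identifiers. Per the labels and the study's methods, reads were demultiplexed with bcl2fastq 2.20, aligned with STAR 2.7.11a and counted with featureCounts 2.0.8 on GENCODE annotation. The strand setting is not given in the sources used here, so overlapping and antisense genes cannot be told apart, and reads of near-identical copies (MHC, Ifit, Oasl, Saa and haemoglobin families) may be split. The labels and the methods name different RNA kits. The Ccr2-/- table holds 33280 gene symbols, of which 10680 have no count in it. It holds no mitochondrial counts.

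The 9 Ccr2-/- sdCAM libraries were fitted together with edgeR 4.0.16 in R 4.3.3: filterByExpr, TMM, the quasi-likelihood test with p adjusted by Benjamini-Hochberg across every gene in the fit. A gene was called at an adjusted p under 0.05 with a log2 difference over 1 in size. All adjusted p-values are from edgeR and two-sided unless DESeq2 1.42.0 is named. Interactions were fitted on 18 libraries each. No ComBat step was applied to the counts here, and all Ccr2-/- libraries carry the same batch label. At 7887891 to 10727796 counts a library, 3 counts over a group were the floor, and for 1 to 3 counts a ratio is given with its counting interval, which covers counting error only. Samples were grouped by cell type, genotype and treatment in the labels. The reporter-mouse libraries were not used. The test of BLZ945 against CTL in Ccr2-/- sdCAMs was checked on simulated data, with edgeR and DESeq2. The LPS comparisons, the interactions, the blocks and the permutation test were not. Alternatives were DESeq2, other scalings, filters, covariates and sample sets, blocks, and leaving out each library.

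Named genes were Ccr2, the 10 with the smallest p a direction (mean of at least 10 CPM, no overlap), the list members at an unadjusted p under 0.05, the 2 members with the highest level, and 3 a direction for each interaction. Other list members given as examples were chosen after their values were seen. A few list members are not reported here by name, but are in the counts, medians and sums of their lists. The comparison and the 26 gene lists were chosen with earlier results of these data known. Same-numbered mice of the 2 LPS groups did not share a deviation (r = 0.0283 for number 2 and 0.0654 for number 4), so the number was not used as a pair. Sorted MG and sdCAMs of one mouse are pairs by animal, with deviations correlated at -0.0241 to 0.157. Promoters are from RefSeq (GRCm38.p6). The build of the counted annotation is not settled by the sources used here, so no coordinates of counted genes are given.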

Additional observations from a re-analysis of the deposited data

Results flagged for a closer look

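2 results differed between sdCAMs and MG of the same Ccr2-/- mice by edgeR's test of the interaction. Lat2 had an interaction of 1.85 on the log2 scale, with higher levels in all 3 BLZ945 sdCAM libraries (56.3 to 79.8 CPM) than in the CTL ones (15.3 to 19.1 CPM), whereas MG held 89.2 to 119 CPM in BLZ945 and 93.7 to 110 CPM in CTL. Rnf122 had a fitted interaction of 6.3, which depends on the prior count and is no bound, from 1 count in all 3 CTL libraries together to 123 counts in BLZ945. With the mouse as a block, the adjusted p was 0.102 for Lat2 and 0.189 for Rnf122. Groups held 3 libraries, too few for the check of single libraries that stand apart.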

How the results depend on the processing

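In BLZ945 against CTL, the 0 calls became 63 with DESeq2, 1 with median-of-ratios factors, 1 with a count-sum filter, 145 with no filter, 1 without the gene classes that the study removed, 2 with only the 6 libraries compared, 13 with all 18 Ccr2-/- libraries, 9 with the letter m or f as a covariate, and 8 with Xist in its place, a covariate chosen after seeing the data. It stayed at 0 with a minimum mean of 10 counts and with no fold limit. Leaving out one library gave 0 to 7, with 7 without B4f and 2 without untreated 3m. The number of the mouse as a replicate block gave 2 calls here (Cd209a and Sh3bgrl2), 1698 against 2770 for LPS in BLZ945 and 1694 against 2569 for LPS in CTL, and the numbers do not pair these mice. The genotype interaction went from 0 to 26 with DESeq2, to 35 with no filter and to 1329 without WT library 12 (0 to 1329 over libraries left out). The cell type interaction went from 2 to 44 with DESeq2, 130 with no filter and 0 with the mouse as replicate block. Over libraries left out it was 0 to 6: 0 without sdCAM V1m or MG V1m, V2m or B2m, 1 (Lat2) without sdCAM 1m or MG 3m, and 6 without sdCAM B3m or MG B4f. Except for the calls given here, the replicate block changed no call of a comparison. Calls for LPS stayed within 1.5 times in all other alternatives. Of 2773 recomputed values of named genes, 2628 kept their side of the threshold, 130 newly passed it and 15 no longer did. Among genes called or at an unadjusted p under 0.05, 0 turned sign. Other genes did so in places, such as Bst2 with log2 differences of -0.14 to 0.20.

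List medians turned sign in 9 of 525 cases where the shift and the main median both exceeded the spread between replicate libraries. These were lymphocyte markers to 3.66 (count-sum filter) and 3.21 (no filter), and LPS response genes to 0.16 (replicate block) with -0.17 to 0.0624 over libraries left out. Complement genes went to 0.0495 (replicate block) with -0.18 to 0.0334, neutrophil markers had -0.20 (without B2m) to 0.81, and monocyte markers went to -0.21 (replicate block). Other sign changes fell short of that rule and are not in the count. Among them, medians reached 0.0417 for chemokines, 0.166 for sdCAM markers and 0.132 for neural and choroid markers. Dendritic cell markers reached 0.263 and MHC class I genes 0.0664. For these the cause was not tested. Depth and 3 mice a group leave 95% intervals of the log2 difference with a median half-width of 0.779, and the interval lay within 1 in either direction for 41.8% of genes.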
